A study of Mus musculus with 4 samples.

Results

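The nuclear genes that encode subunits of the mitochondrial respiratory chain and of the ATP synthase were followed in sorted neuron nuclei of the mouse cervical spinal cord. They were picked by symbol among the 32285 gene symbols of the deposited matrices, with pseudogene, antisense and predicted-gene symbols left out, by a rule that uses the symbols alone. This gave 84 genes: 37 of complex I, 4 of complex II, 8 of complex III, 18 of complex IV and 17 of complex V. The grouping follows the symbols, so Ndufa4 is counted under complex I although its protein is now known as a subunit of complex IV.

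Complexes I to IV pass electrons from NADH and succinate to oxygen, and complexes I, III and IV pump protons across the inner mitochondrial membrane. Complex V, the ATP synthase, lets the protons back and makes ATP, on which neurons depend for ion pumping and synaptic transmission. Most subunits are encoded in the nucleus and imported, and a small set in complexes I, III, IV and V is encoded by mitochondrial DNA, while complex II is encoded in the nucleus alone. A nuclear preparation holds transcripts of the first kind that have not yet left the nucleus. Their exported transcripts, like the mitochondrial ones, enter it only as carry-over from the cytoplasm.

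The series holds 4 libraries of single-nucleus RNA sequencing (10x Genomics, v3 chemistry for the transcript end), 2 from uninjured mice and 2 from mice 5 days after a hemisection, a one-sided cut of the spinal cord, at segment C2. All mice were female and of the genotype Chx10Cre/+; ROSA26CAG-LSL-Sun1-sfGFP-Myc/+, so the controls carried the same Cre and reporter alleles as the injured mice, and no strain background is given. The Cre allele switches on Sun1-sfGFP-Myc, a fluorescent protein of the nuclear envelope, in the V2a lineage of excitatory spinal interneurons and in any other cell in which the driver has been active, and fluorescent nuclei were sorted. The uninjured samples took in segments C1 to C8 and the injured ones C3 to C8, and injury and segments cannot be told apart here. No label states that each library is another animal, and p-values then measure only the spread between the 4 libraries, possibly a technical one.

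The deposited matrices held 569, 2399, 601 and 432 nuclei in uninjured library 1, uninjured library 2, injured library 1 and injured library 2, the order kept for every set of 4 values in the text. Total counts were 7128996, 13496025, 3982267 and 2901680. Neuron clusters held 543, 1244, 515 and 380 of the analysed nuclei, 2682 in all. In these nuclei 11.2, 11, 11.4 and 11.6 of 13 pan-neuronal markers were detected per nucleus, at like depth. Uninjured library 2 also held 657 oligodendrocyte-like nuclei, 115 of the 118 nuclei of the inhibitory-like cluster and most nuclei of 2 unnamed neuron clusters (115 of 119 and 105 of 108). The libraries shared almost no cell barcodes: uninjured library 2 shared 1 with uninjured library 1 and 1 with injured library 1, and the other pairs shared 0.

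The matrices had been through SoupX, per their names, a tool that takes away counts it assigns to free RNA in the suspension. Between 53.0% and 60.1% of the entries stored in each matrix hold a 0. Such an entry was read as a gene seen in that nucleus at first and then emptied by the subtraction. No source states this, and only the files speak for it. For the respiratory chain the subtraction left almost nothing. The 84 genes had 78089 stored entries in neuron nuclei, of which 1302, or 1.67%, kept a count, against 43.3% of the stored entries of all genes. In 71 of the 84 genes the counts summed to 0 over all neuron nuclei. The genes are therefore described by the share of neuron nuclei with a stored entry, which includes detections of free RNA. Shares are means over 6 bins of nuclei with similar numbers of stored genes (from under 3102 to over 6585), each bin weighted equally, so that deep and shallow nuclei count alike in every library.

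Injured library 2 stands apart in this measure, and it is named before any result because most differences below rest on it. A neuron nucleus had a stored entry for 27.5, 26.1, 29.9 and 40.6 of the 84 genes at like depth. The uninjured mean was 26.8 ± 0.992 and the injured mean 35.2 ± 7.57 (SD, n = 2 libraries each). The injured libraries lay above both uninjured libraries, but injured library 2 was farther from injured library 1 than the latter was from the uninjured libraries. The difference of 8.42 genes per nucleus was 3.07 without injured library 2 and 13.8 without injured library 1. No p is given for such sums, since 2 libraries against 2 allow no exact permutation p below 0.333.

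**Figure D1:**
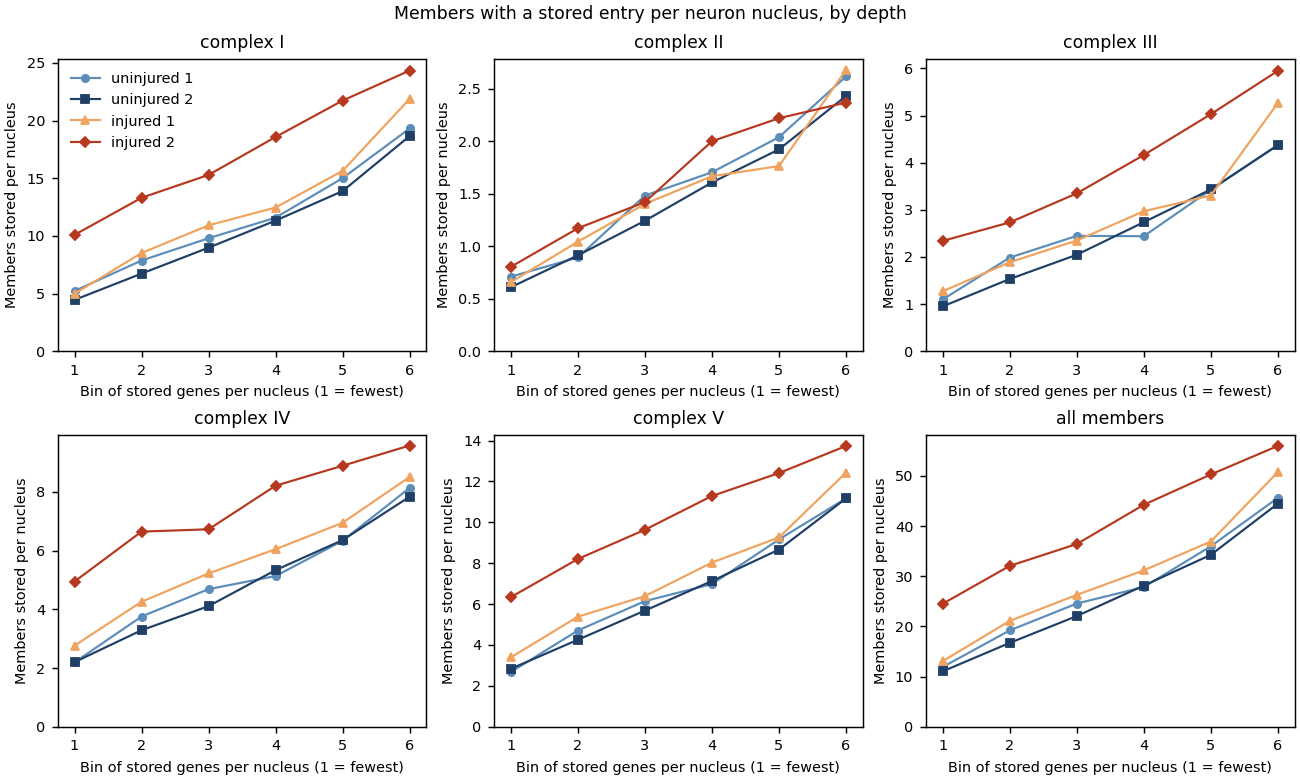
Mean number of subunit genes with a stored entry per neuron nucleus (y axis) in 6 bins of stored genes per nucleus (x axis, 1 = fewest), 1 line per library, in a panel for each complex and for all 84 genes. Injured library 2 lies highest in every bin for all genes together, from 24.5 in the lowest bin to 56.0 in the highest, while complex II shows no such gap.

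The gap between the libraries was present at every depth. In the bin of the shallowest nuclei 11.9, 11, 13.1 and 24.5 of the 84 genes were stored per nucleus, and in the deepest 45.6, 44.5, 50.8 and 56.0. Injured library 1 lay above both uninjured libraries in all 6 bins as well, though by less. Across single nuclei the medians without matching were 31, 25, 24 and 40 genes, with ranges from 0 to 77.

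By complex, the same order of libraries held for complexes I, III, IV and V and not for complex II. Complex I had 11.5, 10.7, 12.4 and 17.2 of its 37 genes stored per nucleus. For complex III the values were 2.63, 2.51, 2.84 and 3.93 of 8, for complex IV 5.04, 4.85, 5.62 and 7.5 of 18, and for complex V 6.81, 6.62, 7.48 and 10.3 of 17. In those 4 complexes injured library 2 stood at 1.52 to 1.56 times the uninjured mean and injured library 1 at 1.11 to 1.14 times. Complex II had 1.57, 1.45, 1.54 and 1.66 of its 4 genes stored, so that its groups overlapped, with injured library 2 at 1.10 times the uninjured mean.

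Gene by gene, differences were tested on the log2 odds of a stored entry with limma (2 libraries against 2, all 13243 genes stored in at least 5% of neuron nuclei, Benjamini-Hochberg adjustment, threshold 0.05). Of the 84 genes 76 passed the 5% minimum, which is set on the mean of all libraries. Both injured libraries lay above both uninjured libraries for 54 of the 76, against 23.5% of all genes tested, and both lay below for 0, against 24.5%. The difference was positive for 74 of the 76 with a median of 0.77, against 49.9% of all genes and a median of 0.00. Only 2 of the 76 passed the test, Ndufb10 and Ndufa11, both higher in injured libraries, where 0.264% of all genes were called higher and 1.59% lower. At an unadjusted p under 0.05 there were 52 of the 76, against 17.8% of all genes. Without injured library 2 the median fell to 0.24, 68 differences were positive and 0 of the 76 passed, with 12 at an unadjusted p under 0.05 and 0.204% of all genes called higher. Without injured library 1 the median was 1.26 and 57 passed, against 3.9% of all genes. Leaving out uninjured library 1 gave 22 calls (0.959% of all genes) and leaving out uninjured library 2 gave 19 (1.28%). Without matching on depth the median was 0.38 where that of all genes was -0.50, and 9 of the 76 had groups that did not overlap in the higher direction. Over all genes that setting called 7 higher and 715 lower, against 35 and 211 with matching (1.86% in either direction). With bins of total counts the medians were 0.85 for the subunits and 0.12 for all genes. In each fit with a library left out the lone library of its group is assumed to vary like the pair of the other group.

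**Figure D2:**
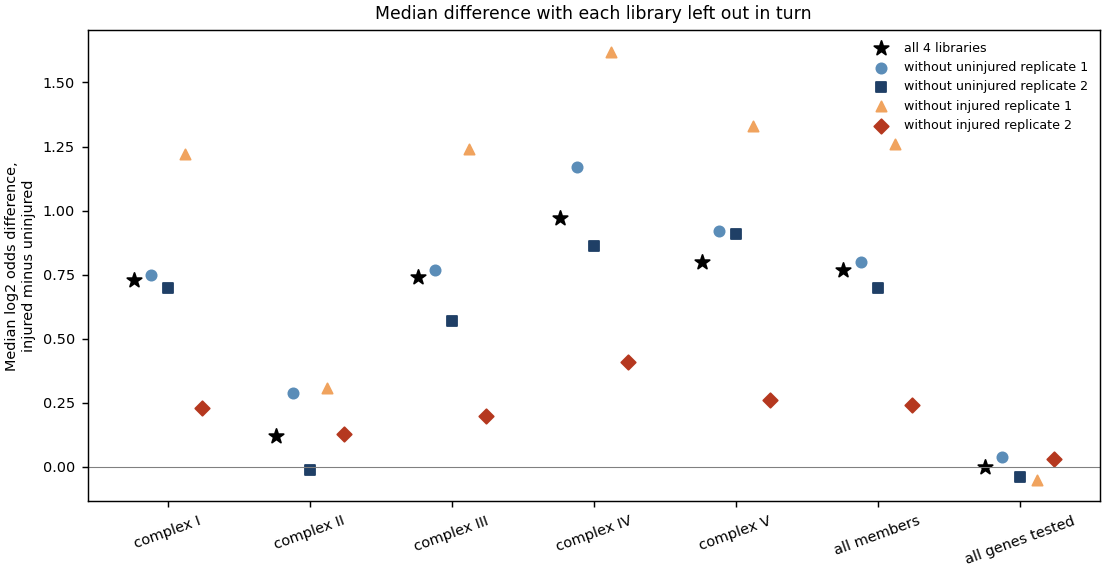
Median log2 odds difference in stored entries, injured minus uninjured (y axis), over the tested genes of each complex, all 76 tested subunit genes and all 13243 genes tested (x axis), with all 4 libraries (stars) and with each library left out in turn. Over the 76 genes the median is 0.77 with all libraries, 1.26 without injured library 1 and 0.24 without injured library 2.

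Each injured library was also set against the uninjured pair on its own. Injured library 1 lay above both uninjured libraries in 55 of the 76 genes, against 40.4% of all genes, with a median log2 odds difference of 0.24 from the uninjured mean. Injured library 2 lay above both in 72 of the 76, against 34.9% of all genes, with a median of 1.26. The difference between the injured libraries themselves had a median of 0.96 and the same sign in 73 of the 76, and that between the uninjured libraries a median of 0.09. The spread within the injured group was thus larger than the distance of injured library 1 from the controls.

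**Figure D3:**
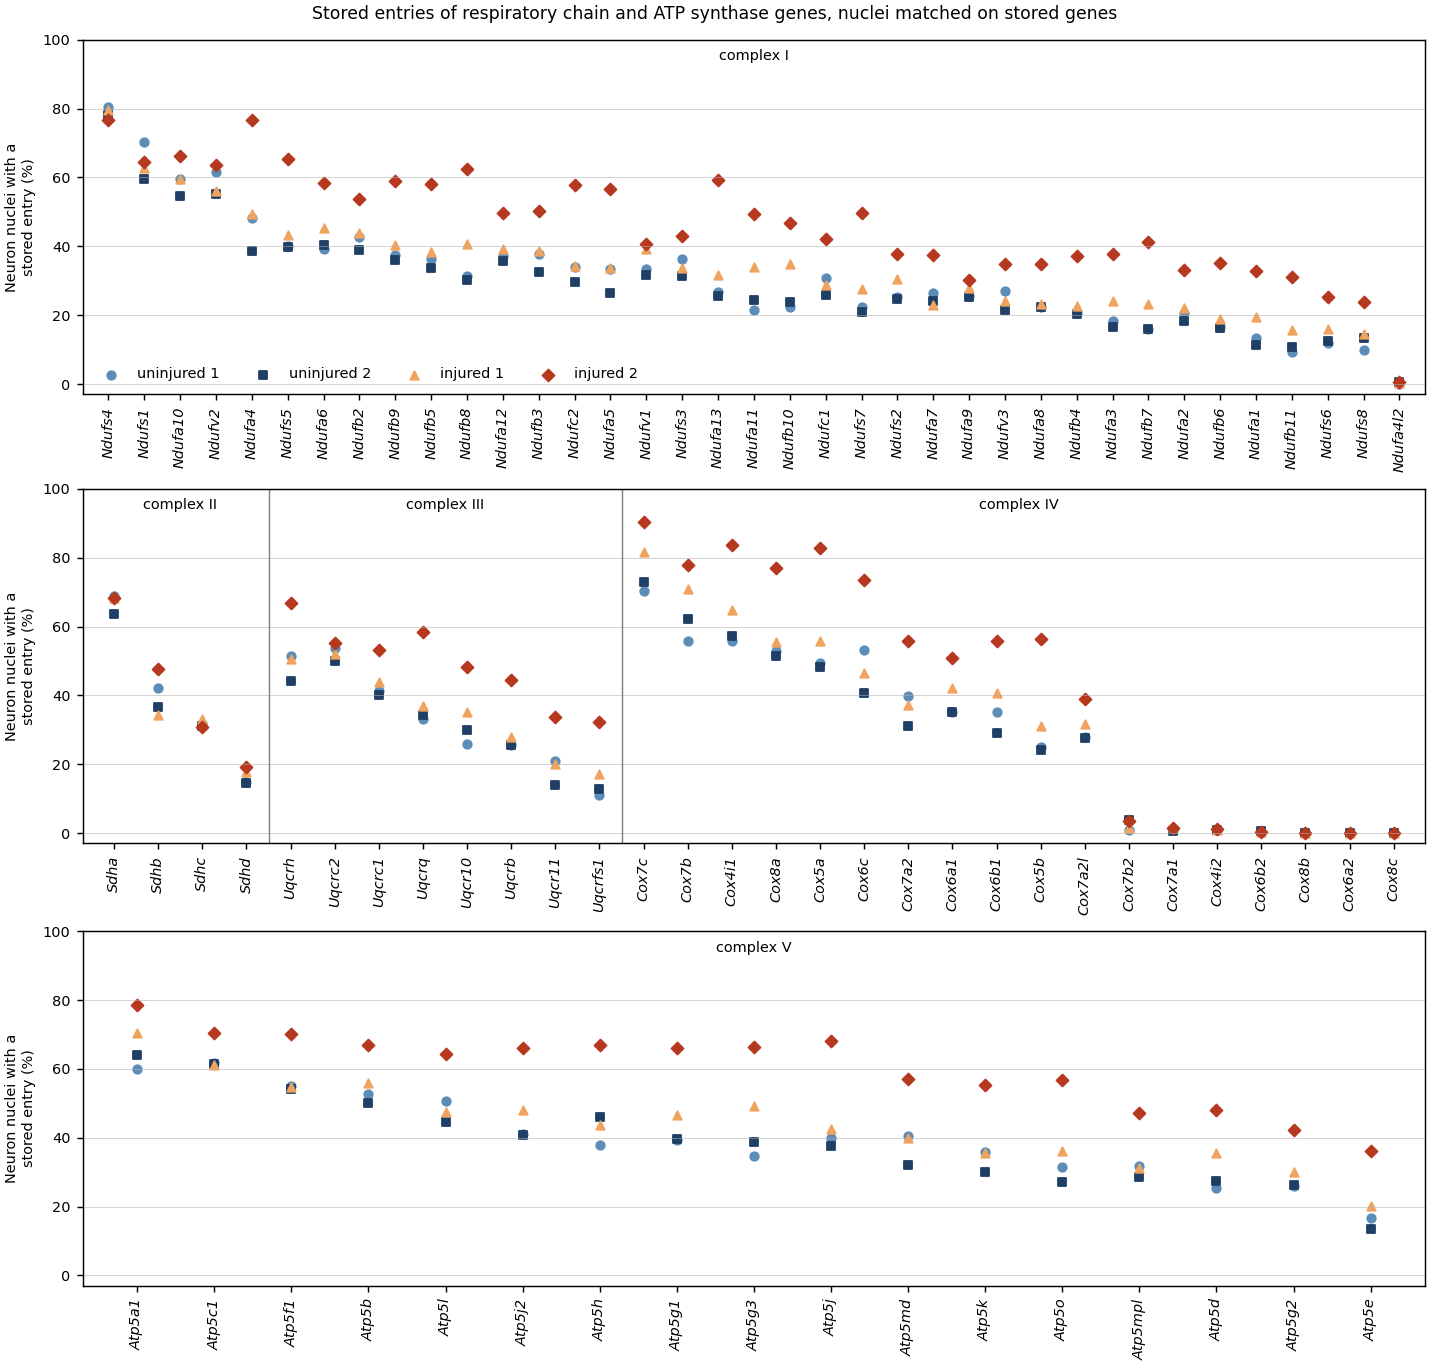
Share of neuron nuclei with a stored entry at like depth (y axis, %) for each of the 84 subunit genes (x axis, ordered by level within each complex), 1 marker per library. The marker of injured library 2 lies clear of the others for most genes of complexes I, III, IV and V. It lies with or near them for genes such as Ndufs4, Ndufs1, Ndufv2, Uqcrc2, Sdha, Sdhc and Sdhd. For Sdhb it stands at 47.8%, above 42.1%, 36.5% and 34.3% in the others.

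Complex I takes electrons from NADH. Of its 37 genes 36 were tested, 34 differences were positive (median 0.73), 29 had both injured libraries above both uninjured libraries, and 2 were called higher. Ndufb10 encodes an accessory subunit of the membrane arm and lies at chr17:24722060-24724478 on the minus strand (GRCm38). Its shares were 22.4%, 23.8%, 34.9% and 46.7%, and at like depth both injured libraries lay above the uninjured pair. The difference was 1.19 in log2 odds (SE 0.25, limma adjusted p = 0.0401). Ndufa11, another accessory subunit of the membrane arm, lies at chr17:56717767-56722141 on the plus strand and partly overlaps Vmac on the other strand. Its shares were 21.5%, 24.5%, 34.0% and 49.3%, with a difference of 1.24 (SE 0.28, limma adjusted p = 0.0457). Both calls were lost without injured library 2, where Ndufb10 differed by 0.83 (limma adjusted p = 0.102) and Ndufa11 by 0.79 (limma adjusted p = 0.128). With 10 bins in place of 6, or bins of total counts, neither passed (limma adjusted p = 0.0701 and 0.0913 for Ndufb10, 0.0677 and 0.10 for Ndufa11). They were lost also without matching (limma adjusted p = 0.282 and 0.176) and with edgeR on numbers of nuclei (edgeR adjusted p = 0.059 and 0.0553). Without matching, Ndufb10 had an entry in 151 of 543 nuclei of uninjured library 1 (27.8%, exact Clopper-Pearson 95% interval 24.1% to 31.8%) and in 291 of 1244 of uninjured library 2 (23.4%, 21.1% to 25.8%). The injured libraries had 152 of 515 (29.5%, 25.6% to 33.7%) and 174 of 380 (45.8%, 40.7% to 50.9%). The intervals cover counting error only, and that of injured library 1 overlaps those of both uninjured libraries.

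The next smallest p-values of complex I belonged to a pair of X-linked accessory subunits of the membrane arm. Ndufa1 was stored in 13.5%, 11.2%, 19.5% and 32.7% of nuclei (1.28, SE 0.31, limma adjusted p = 0.0554). Ndufb11 was stored in 9.41%, 10.7%, 15.7% and 31.1% (1.37, SE 0.35, limma adjusted p = 0.0657). In both the groups did not overlap and injured library 2 was far above injured library 1. Neither passed the threshold, and both passed it when only the glutamatergic neuron-like clusters were used (limma adjusted p = 0.0438 and 0.0389). No gene of complex I was called with 10 bins, bins of total counts or no matching.

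The 5 most widely stored genes of complex I did not share 1 pattern. Ndufs4, an accessory subunit next to the NADH-oxidizing module whose loss causes Leigh syndrome, was stored in 80.5%, 78.1%, 79.5% and 76.6% of nuclei. Ndufs1, the largest iron-sulfur subunit of that module, was stored in 70.4%, 59.5%, 62.8% and 64.4%. These are the genes with the 2 negative differences of the 76, -0.11 (SE 0.25) and -0.09 (SE 0.25), and their groups overlapped. For Ndufv2, a further iron-sulfur subunit of the module, the shares were 61.6%, 55.3%, 56.2% and 63.7% (0.09, SE 0.24). Ndufa10, an accessory subunit, had 59.5%, 54.5%, 59.6% and 66.1% (0.35, SE 0.23). Ndufa4, by contrast, was stored in 48.1%, 38.6%, 49.3% and 76.8% of nuclei (1.23, SE 0.42, limma adjusted p = 0.147). There injured library 1 stood just above uninjured library 1, and injured library 2 far above both.

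Complex II, succinate dehydrogenase, also works in the citrate cycle. All 4 genes were tested, all 4 differences were positive with a median of 0.12 at like depth (-0.38 without matching), and 0 were called (0 also at an unadjusted p under 0.05). Sdha, the flavoprotein that oxidizes succinate, was stored in 68.9%, 63.6%, 68.4% and 68.4% of nuclei, and Sdhb, the iron-sulfur subunit, in 42.1%, 36.5%, 34.3% and 47.8%. The membrane anchors Sdhc and Sdhd were stored in 31.7%, 31.0%, 33.0% and 30.9%, and in 14.7%, 14.4%, 17.8% and 19.2%. Only in Sdhd were both injured libraries above both uninjured libraries (0.42, SE 0.23, limma adjusted p = 0.386). The difference between complex II and the other complexes was not tested.

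Complex III passes electrons from ubiquinol to cytochrome c. All 8 genes were tested, all 8 differences were positive (median 0.74), 5 had groups that did not overlap, and 0 were called (6 at an unadjusted p under 0.05). Uqcrfs1, the Rieske iron-sulfur protein, was stored in 11%, 12.8%, 17.3% and 32.3% of nuclei (1.23, SE 0.34, limma adjusted p = 0.0808). Uqcr10, a small subunit, was stored in 26.0%, 29.8%, 35.2% and 48.3% (0.88, SE 0.26, limma adjusted p = 0.0979). In both genes the 4 libraries ran in the same order of groups, with the largest step between the injured libraries. The most widely stored genes differed less. Uqcrh, the hinge protein of cytochrome c1, had 51.4%, 44.2%, 50.6% and 66.8% (0.65, SE 0.29), and the core proteins Uqcrc2 and Uqcrc1 had 53.8%, 50%, 51.9% and 55.3% (0.10, SE 0.21) and 41.2%, 40.2%, 44.0% and 53.3% (0.46, SE 0.23). For Uqcrh and Uqcrc2 the groups overlapped.

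Complex IV, cytochrome c oxidase, reduces oxygen. Of its 18 genes 11 were tested, all 11 differences were positive (median 0.97), 9 had groups that did not overlap, and 0 were called (9 at an unadjusted p under 0.05). Cox7c, a small membrane subunit, was the most widely stored of the 84 genes and had 70.4%, 72.8%, 81.7% and 90.5% (1.36, SE 0.33, limma adjusted p = 0.0573). Cox7b, a further small subunit, had 55.9%, 62.3%, 70.9% and 77.8% (1.01, SE 0.25, limma adjusted p = 0.0603). These 2 genes passed the threshold when the test ran on the log2 share in place of the odds (limma adjusted p = 0.0409 and 0.0465), and with edgeR on numbers of nuclei (edgeR adjusted p = 0.0396 and 0.0494). With 10 bins, bins of total counts and no matching 0 genes of complex IV were called (smallest limma adjusted p = 0.0726, 0.103 and 0.295). In Cox4i1, Cox8a and Cox6b1 the values were 55.8%, 57.1%, 64.7% and 83.8%, then 53.0%, 51.4%, 55.5% and 77.1%, and then 35.2%, 29.2%, 40.7% and 55.8%. Cox5a was singled out with its values in view and had one of the widest gaps between the injured libraries, with 49.4%, 48.1%, 55.8% and 82.9% (1.37, SE 0.44, limma adjusted p = 0.120).

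Several subunits of complex IV exist in a general form and in forms known from muscle, lung or testis, and in these nuclei the general forms carried nearly all stored entries. Cox4i1 stood at 55.8% to 83.8% of nuclei and Cox4i2, its form in lung and hypoxic cells, at 0.811% to 1.16%. Cox6a1 was stored in 35.2%, 35.3%, 42.0% and 50.8%, while the heart and skeletal muscle form Cox6a2 was stored in 0 of 2682 neuron nuclei, which allows a share of up to 0.112%. Cox6b1 stood at 29.2% to 55.8% and the testis form Cox6b2 at 0.206% to 0.531%. For Cox7a2 the shares were 39.7%, 31.2%, 37.2% and 55.7%, and for its muscle form Cox7a1 0.998%, 0.650%, 1.90% and 1.37%. Their relative Cox7a2l, which joins complexes III and IV into supercomplexes, had 27.9%, 27.5%, 31.6% and 38.9% (0.50, SE 0.22). Cox8a stood at 51.4% to 77.1%, the muscle form Cox8b had a stored entry in 1 nucleus and the testis form Cox8c in 0 of 2682, with the same upper limit of 0.112%. Likewise Ndufa4l2, a hypoxia-induced relative of Ndufa4, stood at 0.103% to 0.577%. A stored entry can come from free RNA, so no share here, high or near 1%, is read as expression. After the subtraction Cox4i1, Cox6a1, Cox6b1, Cox7a2 and Cox8a kept 0 counts in neuron nuclei. Cox4i2, Cox6b2 and Cox7a1 kept 3, 1 and 2 counts, in 12%, 7.69% and 7.14% of their few stored entries.

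Cox7b2, the testis relative of Cox7b, kept counts in the highest share of its stored entries. It was stored in only 1.01%, 3.68%, 1.56% and 3.48% of nuclei, but 70% of its stored entries kept a count, against 39.6% for Ndufs4, 21.1% for Ndufs1 and 0.00% for Cox7b. Its summed counts were 11, 54, 5 and 6. The annotated gene spans 105.4 kb, against 6.75 kb for Cox7b. What separates these entries from those of the other genes was not tested.

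Complex V makes ATP. All 17 genes were tested, all 17 differences were positive (median 0.80), 10 had groups that did not overlap, and 0 were called (13 at an unadjusted p under 0.05). Atp5a1, the alpha subunit of the catalytic head, was the most widely stored gene of the complex, with 60.1%, 64.0%, 70.4% and 78.7% (0.85, SE 0.26, limma adjusted p = 0.102), and Atp5b, the beta subunit of the head, had 52.7%, 50%, 55.8% and 66.9% (0.59, SE 0.25). Atp5c1, the gamma subunit of the central stalk, had 61.7%, 61.3%, 61.1% and 70.3% (0.27, SE 0.24), and Atp5f1, the b subunit of the peripheral stalk, had 55.1%, 54.2%, 54.8% and 70.2% (0.48, SE 0.28). In the last pair injured library 1 lay within the uninjured range or below it. Atp5d, the delta subunit of the central stalk, had 25.4%, 27.5%, 35.6% and 48.2% (1.00, SE 0.25, limma adjusted p = 0.0636).

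The ring of c subunits, which turns as protons pass, is encoded by 3 genes whose mature proteins are the same. Atp5g3 had 34.7%, 38.8%, 49.1% and 66.4% of nuclei with a stored entry (1.25, SE 0.29, limma adjusted p = 0.0508). Atp5g1 had 39.3%, 39.7%, 46.5% and 66.2% (1.00, SE 0.31), and Atp5g2 had 26.0%, 26.4%, 30.1% and 42.3% (0.66, SE 0.25). All 3 had groups that did not overlap, none passed the test, and Atp5g3 passed when only the glutamatergic neuron-like clusters were used (limma adjusted p = 0.0435). No gene of complex V was called with 10 bins, bins of total counts or no matching.

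Promoters were searched because the subunit genes differed mostly in 1 direction. Nuclear respiratory factor 1 (NRF1) and GABPA, also called nuclear respiratory factor 2, are known regulators of such genes, and YY1 sites are common in them. The letters searched on both strands were the NRF1 palindrome, which is GCGCA followed directly by its reverse complement TGCGC, CCGGAAGT (GABPA) and AAGATGGCG (YY1), in the 250 bases before the RefSeq gene start (GRCm38.p6). Of the 84 genes 67 had such a promoter. The NRF1 palindrome stood in 4 of the 67 (5.97%) against 220 of 20267 genes (1.09%), the GABPA letters in 3 (4.48%, against 4.0%) and the YY1 letters in 1 (1.49%, against 0.834%). A match describes the sequence and is no evidence of binding, and most promoters held none of these strict strings. Of the genes called higher, Ndufa11 held the NRF1 palindrome and Ndufb10 held none of the 3. The palindrome (capitals) with 10 bases on each side is shown for the 4 genes, 5′ to 3′ on the gene's strand, together with the stretch before the Ndufb10 start that lies outside annotated exons.
Ndufa11 (chr17:56717692-56717721, plus strand): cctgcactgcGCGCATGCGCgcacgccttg
Cox6a1 (chr5:115349101-115349130, minus strand): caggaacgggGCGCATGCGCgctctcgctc
Atp5g2 (chr15:102671070-102671099, minus strand): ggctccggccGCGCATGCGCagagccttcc
Atp5k (chr5:108434430-108434459, minus strand): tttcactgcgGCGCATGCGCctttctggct
Ndufb10 (chr17:24724479-24724673, minus strand): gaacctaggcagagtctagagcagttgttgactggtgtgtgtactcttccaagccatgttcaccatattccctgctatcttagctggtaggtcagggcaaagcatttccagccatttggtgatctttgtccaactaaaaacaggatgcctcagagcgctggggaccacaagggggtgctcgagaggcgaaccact
The palindrome began 60 bases before the RefSeq start of Ndufa11, 162 before Cox6a1, 42 before Atp5g2 and 50 before Atp5k. GENCODE places some starts elsewhere: its Atp5g2 begins upstream, at base 102672352, so that this stretch lies inside the GENCODE gene, and its Atp5k begins at base 108434448, within the stretch shown. The 4 genes had log2 odds differences of 1.24, 0.67, 0.66 and 0.75, and all but Atp5k had groups that did not overlap. Over all 76 tested subunit genes 54 had such groups, against 23.5% of all genes tested, and the median difference was 0.77. Whether genes with the palindrome differ from the other subunit genes was not tested.

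The factors themselves showed no difference past the threshold. Nrf1 was stored in 73.6%, 67.6%, 71.0% and 69.6% of nuclei (-0.03, SE 0.24), Gabpa in 25.6%, 22.5%, 24.5% and 24.3% (0.03, SE 0.22) and Yy1 in 48.4%, 41.9%, 44.3% and 44.4% (-0.04, SE 0.21). Among 13 regulators of mitochondrial biogenesis, 5 differences were positive with a median of -0.03 (-0.53 without matching, 0.09 with bins of total counts and 0.04 without injured library 2) and 0 were called (0 at an unadjusted p under 0.05). The smallest p was that of Esrrg, a nuclear receptor of oxidative genes, with 92.4%, 81.4%, 94.3% and 90.2% (0.74, SE 0.47), followed by Polrmt, the mitochondrial RNA polymerase, with 15.7%, 14.2%, 17.3% and 19.3% (0.35, SE 0.24). Neither passed the test, and a missed threshold does not show that a regulator was unchanged.

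Gene length moved with the result. The 23 tested subunit genes with an annotated span under 5 kb had a median difference of 0.88, the 28 from 5 to 10 kb 0.86, the 13 from 10 to 20 kb 0.48 and the 9 from 20 to 50 kb 0.14. All other genes showed a slope of the same direction at a lower level, with medians of 0.32, 0.18, 0.07 and -0.02 in the same classes and -0.11 to -0.13 beyond 50 kb. Across genes, which are not independent replicates and share the libraries, Spearman's rho between difference and span was -0.60 over 75 subunit genes and -0.28 over 13016 other genes. In the shortest class the median of injured library 2 less the uninjured mean was 1.49 for subunit genes and 0.48 for other genes, and for injured library 1 it was 0.41 and 0.14. In the class from 10 to 20 kb it was 0.82 and 0.09 for injured library 2, and 0.07 and 0.05 for injured library 1. The gap between subunit genes and other genes of like span was not tested. The span of Atp5o, 242.6 kb, includes an annotated long transcript that runs over Donson and Cryzl1. The part of gene length or of RNA carried over from the cytoplasm in the difference was not tested.

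**Figure D4:**
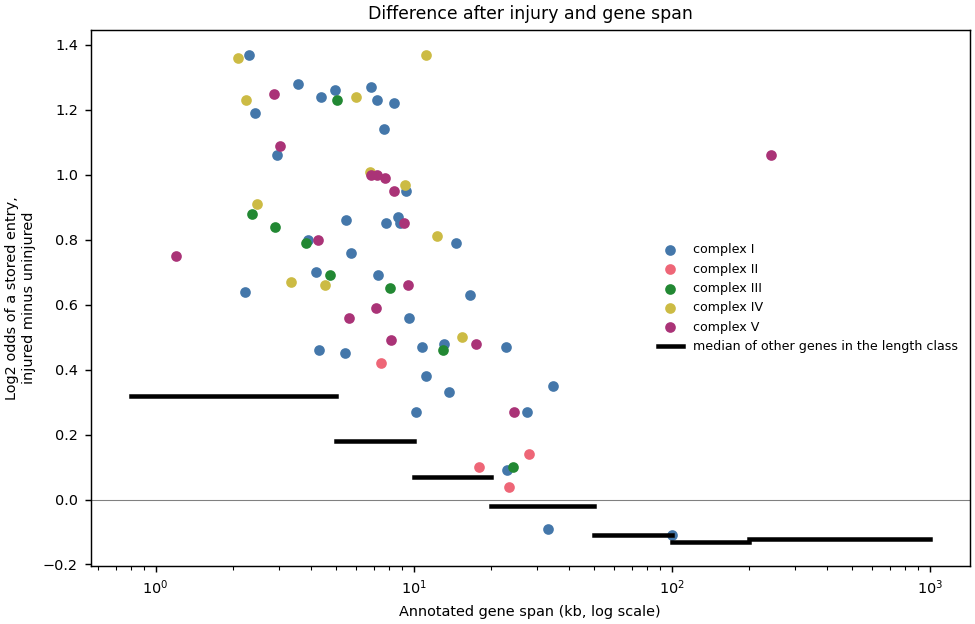
Log2 odds difference in stored entries, injured minus uninjured (y axis), against the annotated gene span (x axis, log scale) for the tested subunit genes, coloured by complex; black bars give the median of all other genes in each length class. Subunit genes under 10 kb lie above the bar of their class, and the genes of complex II, with 7.46 to 28.0 kb, lie between 0.04 and 0.42.

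Cytosolic ribosomal protein genes, another list of mostly short genes, gave differences of the same direction. The 77 genes were stored at 21.1, 18.9, 20.9 and 34.2 per nucleus, with 75 positive differences of 77 (median 0.71), 38 with groups that did not overlap and 0 called (36 at an unadjusted p under 0.05). There injured library 1 lay between the uninjured libraries. The smallest p of that list was that of Rpl38, with 38.5%, 28.9%, 46.7% and 63.8% (1.30, SE 0.31, limma adjusted p = 0.0548). Without injured library 2 the ribosomal median was 0.15 against 0.24 for the subunits.

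Lists of genes that work beside the respiratory chain are given next, each beside the shares of all genes stated above. Among cytochrome c, carriers and porins, a list that also holds the subunit gene Cox7a2l, all 12 tested differences were positive (median 0.68), 10 had groups that did not overlap, and 1 was called. That gene is Slc25a3, the mitochondrial phosphate carrier that feeds the ATP synthase, with 74.9%, 83.2%, 91.1% and 93.2% (1.61, SE 0.33, limma adjusted p = 0.0397). Its injured libraries lay close together. The call was lost without injured library 2 (1.41, limma adjusted p = 0.0664), without uninjured library 1 (1.24, limma adjusted p = 0.188) and in the glutamatergic neuron-like clusters alone (1.32, limma adjusted p = 0.127). It was lost too with 10 bins, bins of total counts and no matching (limma adjusted p = 0.0585, 0.0848 and 0.429), and with edgeR on numbers of nuclei (edgeR adjusted p = 0.071). With a replicate block 0 genes of this list were called. Slc25a4, the ADP/ATP carrier of excitable cells, had 59.6%, 61.5%, 72.7% and 88.0% (1.52, SE 0.37, limma adjusted p = 0.0571).

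In glycolysis 15 of 16 tested differences were positive (median 0.68), 11 had groups that did not overlap, and 1 was called. Aldoa, aldolase, was stored in 37.4%, 40.3%, 53.7% and 75.1% of nuclei (1.56, SE 0.34, limma adjusted p = 0.0450), and without injured library 2 the difference was 0.87 (limma adjusted p = 0.0897). With 10 bins, bins of total counts and no matching it did not pass (limma adjusted p = 0.0722, 0.103 and 0.196), and with a replicate block 0 glycolysis genes were called. Pkm, pyruvate kinase, had 45.4%, 43.7%, 56.9% and 69.5% (1.11, SE 0.26, limma adjusted p = 0.0504). In the citrate cycle and pyruvate dehydrogenase 15 of 18 were positive with a median of 0.21 (-0.39 without matching) and 0 were called (3 at an unadjusted p under 0.05). Its smallest p was that of Idh3b, a subunit of isocitrate dehydrogenase, with 50.9%, 59.5%, 68.2% and 71.4% (0.91, SE 0.24, limma adjusted p = 0.0705), followed by Pdha1 of pyruvate dehydrogenase with 21.5%, 26.6%, 32.4% and 30.7% (0.55, SE 0.22).

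Proteins that build the complexes without staying in them gave smaller differences. Of 42 tested assembly factors 27 differences were positive (median 0.17, and -0.36 without matching), 14 had groups that did not overlap in the higher and 5 in the lower direction, and 0 were called (7 at an unadjusted p under 0.05). Over all genes these shares were 23.5%, 24.5% and 17.8%, so the 7 of 42 are near the background. Pet100, a factor for complex IV, had 33.6%, 33.4%, 45.4% and 45.0% (0.71, SE 0.20, limma adjusted p = 0.0853), and Cox14, another, had 15.6%, 19.5%, 22.8% and 28.8% (0.71, SE 0.25). In Pet100 the injured libraries lay side by side. Of 18 genes of mitochondrial dynamics and import 10 differences were positive (median 0.04, but -0.55 without matching and -0.09 with 4 bins) and 0 were called (3 at an unadjusted p under 0.05), with Tomm20 of the outer membrane import pore at 32.8%, 32.6%, 36.4% and 48.8% (0.61, SE 0.25) and Rhot2, a mitochondrial transport adaptor, at 19.9%, 23.0%, 28.5% and 26.5% (0.48, SE 0.22). Whether these lists differ from the subunits was not tested. Of 9 axon injury genes 5 were tested, 3 differences were positive (median 0.19) and 0 were called (1 at an unadjusted p under 0.05). Groups did not overlap in the higher direction in 3 genes and in the lower direction in 1. The 2 negative differences were those of Sox11, with 25.1%, 23.4%, 22.1% and 17.8% (-0.37, SE 0.23), and Gap43, with 71.2%, 68.4%, 65.6% and 70.9% (-0.10, SE 0.23). Ecel1 had 8.40%, 8.47%, 14.0% and 14.8% (0.87, SE 0.26, limma adjusted p = 0.102) and Jun 8.37%, 8.10%, 9.38% and 15.8% (0.64, SE 0.32), and Atf3, below the 5% minimum, had 0.443%, 0.0864%, 1.31% and 2.16%.

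The subunits encoded by mitochondrial DNA ran in another order of libraries. At like depth 1.43, 2.42, 1.06 and 2.42 of the 13 genes were stored per neuron nucleus, highest in uninjured library 2 and injured library 2, and all their counts had been emptied. Of 9 tested, 2 differences were positive (median -0.28), 0 had groups that did not overlap and 0 were called (0 at an unadjusted p under 0.05). Mt-Atp6 had 15.1%, 40.8%, 11.7% and 24.3% (-0.76, SE 0.52), and mt-Nd2 10.6%, 20.8%, 8.28% and 16.5% (-0.40, SE 0.41). The sign of the median depended on the libraries used: it was -0.96 without injured library 2, 0.52 without injured library 1 and 0.22 without uninjured library 2. At least 1 mitochondrial gene was stored in 74.0%, 89.9%, 51.8% and 87.6% of neuron nuclei. Nuclei with such an entry held 1.08, 1.07, 1.09 and 1.14 times as many nuclear-encoded subunit genes as nuclei of like depth in the same library without one. The ratios cover only nuclei that could be compared at like depth. These were 347 of 402, 911 of 1118, 249 of 267 and 125 of 333, so that of injured library 2 leaves out most of its nuclei.

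Markers of other cell types and of neuron classes were followed in the same neuron nuclei. The 7 inhibitory markers were stored at 0.429, 1.1, 0.318 and 0.29 per nucleus, lower in both injured libraries. Their level was 24.5, 120, 27.1 and 34.5 CPM, with Slc32a1 at 0 counts. CPM are counts divided by the library's total, which edgeR had adjusted by TMM, and put on 1 scale. The 3 glutamatergic markers were stored at 0.825, 0.672, 0.905 and 0.862, higher in both injured libraries, at 6.72, 1.94, 2.58 and 49.9 CPM. With the glutamatergic neuron-like clusters alone the subunits differed by 7.94 genes per nucleus, against 8.42 in all neuron nuclei. These clusters still include cluster 4, which has the inhibitory marker Gad2 among its leading genes. The 11 oligodendrocyte markers were stored at 1.31, 2.01, 1.02 and 1.52 per neuron nucleus, and 0 of them had both injured libraries above both uninjured libraries. Their summed level was 14.8, 0.677, 10.1 and 27.1 CPM, with Opalin and Ermn at 0 counts. For the 8 microglia or macrophage markers the values were 1.31, 1.36, 1.2 and 1.28 stored per nucleus and 132, 227, 78.1 and 128 CPM, with Tmem119 at 0 counts. The 8 astrocyte markers stood at 0.712, 0.893, 0.829 and 0.871 stored per nucleus and 49.6, 12.9, 56.1 and 11.7 CPM, with Agt at 0 counts. The sum over the 5 ependymal markers was higher in both injured libraries, at 0.125, 0.141, 0.258 and 0.188 stored per nucleus. It was 4.17, 7.64, 10.9 and 9.70 CPM, with injured library 1 highest and Ccdc153 at 0 counts. Both injured libraries lay above both uninjured libraries in only 1 of these 5 markers. The same held for 2 of the 8 astrocyte, 3 of the 8 microglia or macrophage and 2 of the 3 glutamatergic markers, against 23.5% of all genes tested. The part of other cell types' RNA in the subunit result was not tested.

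Across the glutamatergic neuron-like clusters the difference between libraries recurred. Each cluster in each library was set against uninjured neuron nuclei of like depth where at least 20 of its nuclei had such a counterpart. In uninjured libraries the 9 clusters held 0.944 to 1.05 times as many subunit genes as those nuclei, in injured library 1 the 7 clusters with enough nuclei held 1.03 to 1.2 times, and in injured library 2 the 7 clusters with enough nuclei held 1.41 to 1.73 times. The highest ratio was that of cluster 11 in injured library 2. Set against the other neuron nuclei of the same library, which is another reference, these clusters ran from 0.908 to 1.09. The shallow unnamed neuron cluster, whose leading genes include Nefl, Tubb3 and Ina, held 1.15 to 1.33 times as many in the 3 libraries with enough nuclei. The unnamed neuron clusters found mainly in uninjured library 2 held 0.803 and 0.848 times, and the inhibitory-like cluster 0.974 times. These ratios describe clusters drawn from the same nuclei and carry no test.

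**Figure D5:**
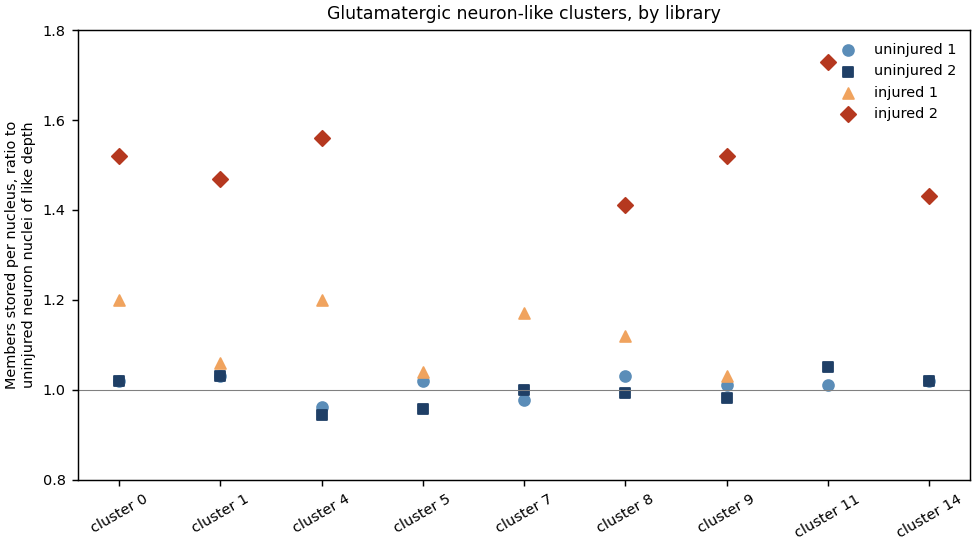
Ratio of subunit genes stored per nucleus in each glutamatergic neuron-like cluster to uninjured neuron nuclei of like depth (y axis, starting at 0.8), by cluster (x axis) and library, for clusters with at least 20 nuclei compared in the library. Injured library 2 lies between 1.41 and 1.73 in the 7 clusters that hold a value, above the other libraries in each.

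Other cell classes could be set beside neurons in single libraries only. In uninjured library 2, 657 oligodendrocyte-like nuclei held 7.29 subunit genes per nucleus, 0.840 times the value of neuron nuclei of like depth, with complex II at 1.38 times and complex III at 0.670 times. For 104 astrocyte-like nuclei the ratio was 1.15, with complex II again highest at 1.40 times, and for 31 oligodendrocyte precursor-like nuclei it was 0.875. In injured library 1, 29 microglia or macrophage-like nuclei held 0.664 times the neuronal value. With 1 library per class these ratios have no replicate check.

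In the counts that the subtraction left, 13 of the 84 genes kept at least 1 count in neuron nuclei and 3 could be tested with edgeR's quasi-likelihood test on counts summed per library. Ndufs4 had 774, 551, 405 and 165 counts, or 104, 53.3, 105 and 55.2 CPM, with a log2 fold change of 0.06 (SE 0.49). Ndufs1 had 307, 104, 81 and 59 counts (41.2, 10.1, 20.9 and 19.7 CPM; -0.30, SE 0.77), and for Cox7b2 the log2 fold change was -0.99 (SE 1.08). The groups overlapped in all 3 genes on the scale of CPM, and all 3 had an edgeR adjusted p of 0.998. Across the table edgeR called 0 of 11320 genes (0%), with 250 at an unadjusted p under 0.05, while DESeq2 called 15 and limma 0. The other 10 genes with counts, among them Uqcrc2 (42 in all), Sdhc (19) and Sdha (11), were too low to test.

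Overlapping genes limit some assignments. Of the 84 genes 83 were found in the annotation (GENCODE M21, GRCm38), all but Atp5md, and 26 overlap an annotated gene on the other strand. Without a statement that counting used strand, reads of such pairs cannot be told apart. A further limit is overlap on the same strand, found in 2 of the 84 genes. Ndufa13 overlaps Yjefn3, and Atp5o overlaps Donson and Cryzl1, and there strand would not separate the genes.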

How the data were processed

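Transcripts in sorted nuclei were measured in 2 uninjured and 2 injured libraries, grouped by their labels. The deposited matrices hold whole-number counts of unique molecular identifiers per gene and nucleus. The mm10 build, Cell Ranger and Seurat 5.0.0 are named in the submitters' processing notes. SoupX settings and the use of strand in counting were not given in the sources read. A stored 0 was read as an entry emptied by SoupX.

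Nuclei were dropped when under 500 genes kept a count (6, 324, 38 and 39 nuclei). A limit of 5% mitochondrial counts removed 0 nuclei and could remove none, since all mitochondrial counts in the matrices were 0. Doublets called by Scrublet in scanpy 1.11.5 were dropped as well (1, 4, 2 and 4). These are 0.306% of the nuclei over the gene minimum, so the caller marked few doublets. The rest were integrated and clustered with Seurat 5.3.0 (2000 variable genes, 30 dimensions, resolution 0.5). Of 19 clusters 13 were called neurons, all with at least 3 pan-neuronal markers at 100 CPM, there taken over the cluster's plain total of counts. Non-neuronal and inhibitory-like names needed at least 3 markers of the class at 4-fold over other nuclei. The name glutamatergic neuron-like had no fold minimum. It needed a count of Slc17a6, at least 3 V2a-lineage genes stored in 5% of nuclei and a minimum depth. Cluster 4 (324 nuclei) bears that name, although Gad2 reached 4-fold there and was among its leading genes.

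Shares of neuron nuclei with a stored entry were averaged over 6 bins of stored genes, and 0.5 nuclei were added before taking log2 odds. They were tested with limma 3.58.1 (trend), and summed counts with edgeR 4.0.16 (TMM, filterByExpr), each over the whole table with Benjamini-Hochberg adjustment. Both fits were tested on simulated data in which all 4 libraries varied alike, which does not cover a gap such as that between the injured libraries. Gene spans and coordinates come from GENCODE M21 (GRCm38, the sequence of mm10), which named 31424 of the symbols, and promoters from RefSeq. Intervals are exact at 95%, and a count of 0 was given a limit of 3 counts.

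The subunit genes, gene lists and tests were chosen with earlier results of these data known. Genes are named by rule: the most widely stored and those with the smallest p in each complex, called genes, pairs of paralogues, and up to 2 genes of each further list by smallest p. Regulators whose sites were searched, Atf3, Sox11, Gap43 and Cox5a were added after their values were seen. Alternatives were other bins, matching, nuclei, filters, scales and tests, a replicate block and each library left out. A check against V2a-lineage genes is not reported here.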

Additional observations from a re-analysis of the deposited data

How the results depend on the processing

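The direction of the median over the 76 tested subunit genes held in all settings run, from 0.24 without injured replicate 2 to 1.26 without injured replicate 1, and 0 subunit genes were called lower in any. Subunit genes called higher numbered 2, and 0 with 10 bins, with matching on total counts and with no matching, 5 in glutamatergic neuron-like clusters alone and on the log2 share, and 0 to 57 with a library left out. Genes called of all tested numbered 246, and 416 with 4 bins, 58 with 10 bins, 1 with matching on total counts, 722 with no matching, 373 in the glutamatergic clusters and 196 to 993 with a library left out. In the counts, 0 genes were called, and 97 with no filter, 15 with DESeq2 and 0 to 176 with a library left out (176 without uninjured replicate 1), with 0 subunit genes in each. With the replicate block 1 gene was called in the stored entries and 0 subunit genes, and 0 in the counts. Deviations of same-numbered libraries showed almost no correlation (-0.0053 over 13243 genes for stored entries and -0.084 over 11320 for counts). A correlation over all genes cannot decide whether the numbers pair the libraries. Some sets, such as the mitochondrially encoded subunits, did run alike in same-numbered libraries. With no matching both injured libraries lay above both uninjured libraries in 9 subunit genes, complex II differed by -0.187 genes per nucleus, and these log2 odds differences turned negative: Ndufa10 -0.24, Ndufv2 -0.44, Sdha -0.46, Sdhb -0.30, Sdhc -0.45, Uqcrc2 -0.44, Uqcrc1 -0.05, Atp5c1 -0.35, Atp5f1 -0.08, Cox7a2l -0.03, Esrrg -0.12 and Polrmt -0.06. Sdhc was -0.02 with 4 bins and -0.01 in the glutamatergic clusters. Ndufs1 was 0.06 with matching on total counts, 0.04 in the glutamatergic clusters and 0.02 with edgeR on numbers of nuclei; in the counts its log2 fold change was 0.02 with limma and 0.02 with the replicate block, and that of Ndufs4 was -0.02 in the glutamatergic clusters. With a library left out the sign turned within these ranges of log2 odds: Ndufs4 -0.23 to 0.01, Ndufs1 -0.44 to 0.25, Ndufv2 -0.14 to 0.32, Sdha -0.03 to 0.31, Sdhb -0.30 to 0.50, Sdhc -0.03 to 0.11, Uqcrc2 -0.01 to 0.21, Atp5c1 -0.03 to 0.56, mt-Atp6 -1.73 to 0.22 and mt-Nd2 -0.97 to 0.16, and of log2 fold changes in counts, Ndufs1 -1.0 to 1.05 and Ndufs4 -0.46 to 0.62. The cause of these changes was not tested. Of 593 values of single genes under alternatives that left out no library, 535 kept direction and side of the threshold. With a library left out 146 of 219 did, and 16 changed direction. Most of these genes were not called in the main fit.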
